A study of Sus scrofa with 20 samples.

Results

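FKBP5, TSC22D3, KLF9, KLF15 and CEBPD are genes whose transcription is raised by glucocorticoids in many tissues, and they were followed in pig heart after 3 protocols of coronary ischemia. The members were every probe set that the platform's probe table assigns to 1 of these 5 symbols, which gave 10 of 23999 tested probe sets: 2 each for FKBP5, TSC22D3 and KLF9, 1 for KLF15 and 3 for CEBPD. Their sequences are not shown, since no sequence was used here. Probe sets of 1 gene are numbered below from the brightest, and levels are not set against each other between probe sets, because each probe set binds its target with its own strength.

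Expression was measured on a 1-colour Affymetrix porcine array in the hearts of 20 female pigs, with 1 array per animal and 5 animals in each of 4 groups. The control group had a sham operation. The SWOP group, named for the second window of preconditioning, had 2 coronary occlusions of 10 min and 24 h of reperfusion. The RCO group (repetitive coronary occlusion) had the occlusion stimulus 6 times, once every 12 h, and the RCS group (repetitive coronary stenosis) had its flow reduced for 90 min by a stenosis, likewise 6 times and every 12 h. For RCO the labels differ from the series description, since the sample labels give 6 episodes of 10 min and the description gives 2 cycles at each of the 6 times. Age, heart region, time of day at sampling and the interval from the last episode to sampling in RCO and RCS were not known here. The time from the sham operation to sampling in control was not known either. Time since the operation could therefore differ between the groups, and its part in the differences was not tested.

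Cortisol, the main glucocorticoid of the pig, enters cells and binds the glucocorticoid receptor, which the chaperone HSP90 holds in the cytoplasm. The bound receptor moves to the nucleus and raises transcription of genes next to its binding sites, while it restrains cytokine genes driven by NF-kappaB and AP-1. Blood cortisol follows the time of day and rises with stress. In the heart, KLF15 and KLF9 are known as receptor targets of cardiomyocytes, and TSC22D3 and CEBPD respond in many cell types.

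All values are log2 signals as deposited, in which 1 unit is a doubling, and n is 5 per group. Group differences were tested with limma, a linear model fitted to every probe set and all 20 arrays, and a difference was called at a Benjamini-Hochberg adjusted p below 0.05 over the 23999 probe sets. The 3 comparisons with control share the same 5 control arrays. The median signal of the arrays lay between 6.75 and 6.82, and the median standard error of a difference was 0.111, so the number of arrays limits the precision. The 8 cardiomyocyte markers were at or above percentile 99.8 of mean signal, and so the label heart was borne out by its defining markers. Array controls added before hybridization were brightest on RCO replicate 1 and SWOP replicate 1, at 10.8 and 10.6. On the other arrays they ran from 10.25 to 10.33 in control, 10.19 to 10.27 in RCO, 10.12 to 10.22 in SWOP and 9.90 to 10.12 in RCS, so that all RCS arrays lay below all control arrays. RCS arrays also had a wider spread of signals, with an interquartile range of 3.27 to 3.44 against 3.04 to 3.16 in control. All SWOP arrays (3.26 to 3.30) were wider than all control arrays too, while RCO arrays (3.05 to 3.32) overlapped them. The part of these array differences in the RCS and SWOP comparisons was not tested beyond quantile normalization, which gives all arrays 1 distribution. Under it TSC22D3 2, KLF15 and CEBPD 1 were still called in RCS against control. Of 4 member probe sets called in SWOP against control, 2 remained under it. TSC22D3 2 and CEBPD 3 were lost there (limma adjusted p = 0.0809 and 0.123).

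Relative to control, SWOP hearts had lower signals at all 10 probe sets, and 4 of them passed the test: both of FKBP5, the dimmer of TSC22D3 and the dimmest of CEBPD. In RCO, 1 probe set passed, KLF9 1, which was lower. In RCS, 3 were lower (TSC22D3 2, KLF9 2 and KLF15) and CEBPD 1 was higher. The median difference of the 10 probe sets was -0.36 in SWOP, -0.20 in RCO and -0.23 in RCS, where the median of all tested probe sets was -0.01, -0.03 and -0.08.

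Over all tested probe sets, 4.14% were called lower and 3.01% higher in SWOP against control. The corresponding shares were 4.81% and 5.9% in RCO and 28.2% and 19.3% in RCS. The 3 lower and 1 higher of 10 in RCS were therefore near the shares of the whole array. These shares move with single hearts too, and the number of probe sets called in SWOP against control in either direction went from 1716 to 480 when control replicate 4 was left out. When each array was centred on its median, the part of the SWOP calls that were higher moved from 42.1% to 57.2%, and only 2 of the 10 probe sets stayed called. The count for SWOP was 2 with quantile normalization. It was 1 without control replicate 4 or without SWOP replicate 2, 3 or 4, and 2 without control replicate 1, control replicate 5 or SWOP replicate 5. All member probe sets that could be tested kept a negative sign in SWOP under every alternative. These signs are not independent, because the 10 probe sets stand for 5 genes and the alternatives share most of their arrays. The members were also chosen with earlier results of these data known. The count for RCO was 0 when control replicate 1, 3 or 4 or RCO replicate 2, 3 or 4 was left out, and 2 without control replicate 2 or RCO replicate 5.

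**Figure D1:**
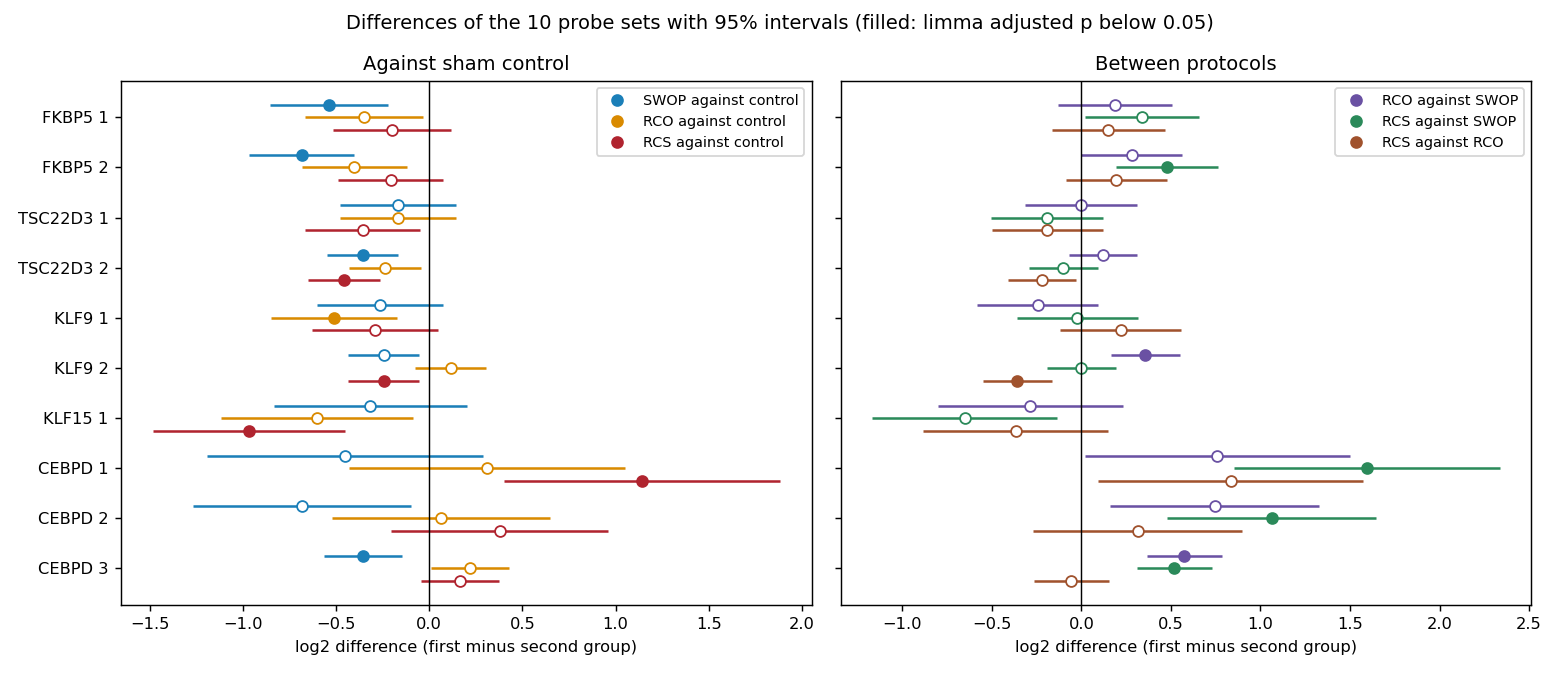
Log2 differences (horizontal axis) of the 10 probe sets against control (left) and between protocols (right), with 95% intervals as bars and filled points where the limma adjusted p was below 0.05. All 10 SWOP points lie left of 0, CEBPD 1 is the member with a filled point to the right of 0 in RCS against control, and the CEBPD probe sets lie to the right in RCS against SWOP.

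FKBP5 encodes FKBP51, an HSP90 co-chaperone that lowers the receptor's affinity for hormone, so its induction closes a short feedback loop. It is widely read as an index of recent glucocorticoid action. Its signal was highest in control, and it was lower in SWOP at both probe sets. At probe set 2 the control hearts (replicates 1 to 5) measured 7.87, 7.65, 7.52, 7.75 and 7.63, and the SWOP hearts 7.45, 6.65, 6.73, 6.84 and 7.33. The RCO hearts measured 7.19, 7.28, 7.11, 7.35 and 7.48, and the RCS hearts 7.43, 7.33, 7.77, 7.49 and 7.37. Every SWOP and every RCO value lay below every control value, while RCS overlapped control.

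The SWOP group itself was uneven, since replicates 1 and 5 reached the RCO and RCS range and replicates 2, 3 and 4 did not. The group means of FKBP5 2 were 7.68 ± 0.132 (SD, n = 5) in control, 7.48 ± 0.174 in RCS, 7.28 ± 0.143 in RCO and 7.0 ± 0.365 in SWOP. No pair of neighbours in this order passed limma, with adjusted p of 0.216 for RCS against control, 0.313 for RCS against RCO and 0.184 for RCO against SWOP.

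In SWOP against control, FKBP5 2 fell by 0.68 (SE 0.135, 1.61-fold; limma adjusted p = 0.0110), and it was called in all 17 alternatives. FKBP5 1 fell by 0.54 in the same comparison (SE 0.152, 1.45-fold; limma adjusted p = 0.0382), and this call held in 9 of 17 alternatives. Leaving out any of control replicates 1, 2, 4 and 5 or of SWOP replicates 2, 3 and 4 ended it (adjusted p 0.0556 to 0.0979), and it was at 0.0514 with array medians centred. The 5 control values of FKBP5 1 ran from 9.0 to 9.49 and the 5 SWOP values from 8.37 to 9.06, so that the ranges overlapped by a single SWOP heart, replicate 1.

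The RCO difference of FKBP5 2 was -0.40 (SE 0.135), with a limma adjusted p of 0.0602 and an interval from -0.68 to -0.12. It passed without RCO replicate 5, at -0.45 and 0.0358, and with quantile normalization, at -0.43 and 0.0467. RCS did not pass against control at either FKBP5 probe set, with differences of -0.20 and -0.21. RCS and SWOP differed at FKBP5 2, where RCS was higher by 0.48 (SE 0.135, 1.39-fold; limma adjusted p = 0.0114) in all 17 alternatives. The same difference at FKBP5 1 was 0.34, with an adjusted p of 0.102.

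TSC22D3 encodes GILZ, the glucocorticoid-induced leucine zipper, which binds NF-kappaB and AP-1 and damps inflammatory transcription. Its dimmer probe set was lower in SWOP and RCS than in control. The control values of TSC22D3 2 were 6.42, 6.14, 6.38, 6.55 and 6.22. The SWOP values were 6.08, 5.93, 5.98, 5.95 and 5.98, the RCO values 6.31, 5.87, 6.24, 6.06 and 6.04, and the RCS values 5.97, 5.73, 5.76, 5.94 and 6.02. No SWOP or RCS heart reached the lowest control heart, and RCO overlapped control.

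TSC22D3 2 fell by 0.46 in RCS (SE 0.0917, 1.37-fold; limma adjusted p = 0.000562), a call made in all 17 alternatives. In SWOP it fell by 0.36 (SE 0.0917, 1.28-fold; limma adjusted p = 0.0268). That call was held in 11 of 17 alternatives and lost with quantile normalization (0.0809) and without control replicate 4 or SWOP replicate 2, 3, 4 or 5 (0.0530 to 0.0783). The order of the means was control 6.34 ± 0.163, RCO 6.10 ± 0.174, SWOP 5.98 ± 0.0577 and RCS 5.88 ± 0.130 (SD, n = 5). No pair of neighbours in it passed, with adjusted p of 0.0981, 0.424 and 0.441.

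The brighter probe set of TSC22D3 was dominated by 1 control heart. Control replicates 1 to 5 measured 9.66, 8.79, 9.87, 9.82 and 9.73, so that replicate 2 lay below every other heart of the study. The 5 values ran from 9.02 to 9.50 in RCS, 9.25 to 9.49 in RCO and 9.31 to 9.58 in SWOP, all below the other 4 controls. With all arrays the differences from control were -0.17, -0.17 and -0.36, and none passed limma (adjusted p 0.497, 0.498 and 0.0538). Without control replicate 2, TSC22D3 1 was lower by 0.36 in SWOP (adjusted p = 0.0427), 0.36 in RCO (0.0217) and 0.55 in RCS (0.000154). The RCS call also appeared with quantile normalization, at -0.50 and 0.0107, and without RCS replicate 4, at -0.43 and 0.0322.

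**Figure D2:**
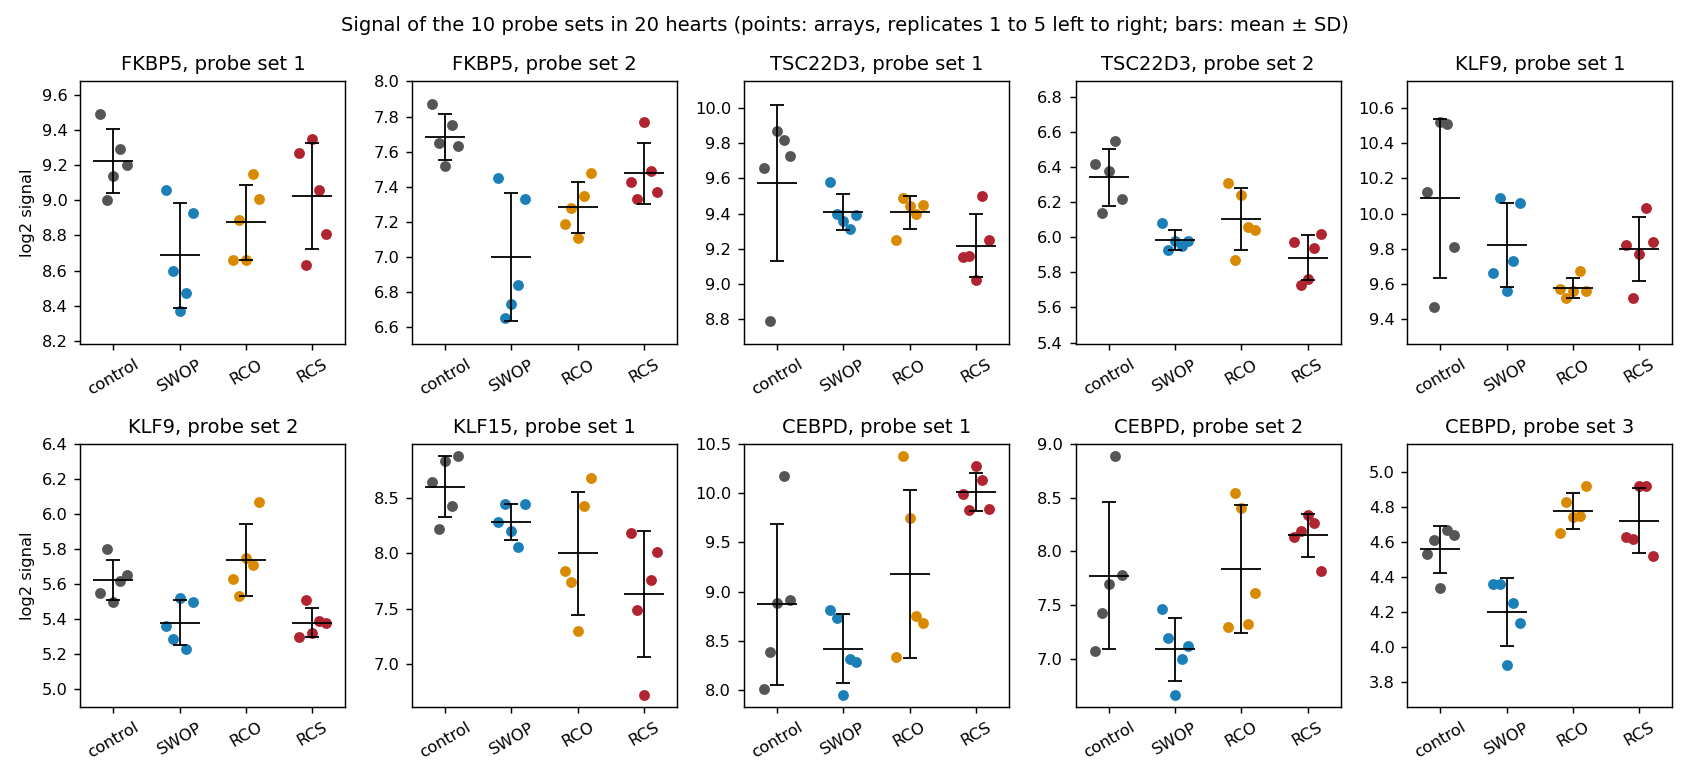
Log2 signal (vertical axis) of each of the 10 probe sets in the 20 hearts, with points for arrays, replicates 1 to 5 from left to right, and bars for mean ± SD. Control replicate 2 stands below the other hearts at TSC22D3 1, KLF15 falls to 6.72 in RCS replicate 3, and the 5 RCS hearts lie close together at CEBPD 1.

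KLF9 is a zinc finger repressor that receptor and circadian clock both regulate. Its brighter probe set was spread widely among controls, at 10.12, 9.47, 10.52, 10.51 and 9.81, and narrowly in RCO, at 9.57, 9.52, 9.56, 9.67 and 9.56. The SWOP hearts measured 9.66, 10.09, 9.56, 9.73 and 10.06, and the RCS hearts 9.82, 9.52, 9.77, 10.03 and 9.84. Control replicate 2, the low heart at TSC22D3 1, was also the lowest of all 20 here, and all 4 groups overlapped.

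KLF9 1 fell by 0.51 in RCO against control (SE 0.162, 1.42-fold; limma adjusted p = 0.0484). The call held in 5 of 18 alternatives. Of the fits without a single array, the call remained in those without control replicate 2 or 5. Without any other heart of these groups the adjusted p ran from 0.0530 (RCO replicate 5) to 0.124 (control replicate 4). Without control replicate 2 it was stronger, at -0.66 and 0.0106. The differences of -0.27 in SWOP and -0.29 in RCS did not pass (0.302 and 0.146). By mean the order was control 10.09 ± 0.454, SWOP 9.82 ± 0.241, RCS 9.80 ± 0.183 and RCO 9.58 ± 0.0559 (SD, n = 5), with adjusted p of 0.302, 0.927 and 0.345 between neighbours.

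The probe set KLF9 2 did not follow KLF9 1. It is carried by the probe table under another gene identifier, which the RefSeq gene table used here does not list, so that its assignment to KLF9 is uncertain. The 5 values ran from 5.53 to 6.07 in RCO, 5.50 to 5.8 in control, 5.30 to 5.51 in RCS and 5.23 to 5.52 in SWOP. RCO therefore lay above all SWOP and RCS hearts, by 0.36 in each case (SE 0.0918, 1.28-fold; limma adjusted p = 0.0206 against SWOP and 0.0134 against RCS). RCS was lower than control by 0.24 (adjusted p = 0.0347), which held in 8 of 17 alternatives and was -0.12 with an adjusted p of 0.243 under quantile normalization. The call against SWOP was lost without SWOP replicate 2 or 4 (0.0556 and 0.0558), and both calls were lost when only the compared groups were fitted.

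KLF15 is a zinc finger factor that works with the glucocorticoid receptor in muscle and heart to raise amino acid and lipid use, and it is known to hold back hypertrophic transcription by GATA4 and myocardin. Its single probe set was lower in RCS than in control. Control hearts measured 8.64, 8.22, 8.83, 8.43 and 8.88, and RCS hearts 8.18, 7.49, 6.72, 7.76 and 8.01. SWOP hearts measured 8.28, 8.44, 8.20, 8.06 and 8.44, and RCO hearts 7.84, 7.74, 7.30, 8.43 and 8.68. Every RCS heart lay below every control heart, SWOP formed a narrow band inside and just under the control range, and RCO split between 3 low hearts (replicates 1 to 3) and 2 at control level.

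KLF15 fell by 0.97 in RCS (SE 0.248, 1.96-fold, interval -1.48 to -0.45; limma adjusted p = 0.00369), and the call was made in all 17 alternatives, with a highest adjusted p of 0.0126. The differences of -0.60 in RCO and -0.32 in SWOP did not pass (0.121 and 0.431). The RCO difference passed without RCO replicate 5, at -0.77 and 0.0346. The order of means was control 8.60 ± 0.277, SWOP 8.28 ± 0.163, RCO 7.998 ± 0.555 and RCS 7.63 ± 0.573 (SD, n = 5). No pair of neighbours in it passed (limma adjusted p = 0.431, 0.486 and 0.302).

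RCS against SWOP was at the edge for KLF15, with a difference of -0.65 (SE 0.248) and a limma adjusted p of 0.0535. It passed without RCS replicate 1 (-0.79, 0.0248) or replicate 5 (-0.75, 0.0375), without dim probe sets (0.0431) and when only these 2 groups were fitted (0.0341). Without RCO replicates 2 and 3, RCS was lower than RCO by 0.68 with an adjusted p of 0.0399, against -0.37 and 0.302 with all arrays.

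Cardiomyocyte markers moved alongside. All 8 were measured and none was near 0, and their summed level (log2) lay between 17.05 and 17.38 in RCS, 17.35 and 17.46 in RCO, 17.49 and 17.55 in SWOP and 17.53 and 17.58 in control. Of the 8, 6 were lower in RCS against control and 1 in RCO, where 25.7% and 4.26% of all genes were lower. RCS replicate 3, the lowest heart for KLF15, also had the lowest cardiomyocyte sum, at 17.05. In whole tissue, fewer cells of a type and less RNA per cell cannot be told apart, and the part of cell composition in the KLF15 difference was not tested. The summed level of adipocyte markers, of which 5 of 6 were measured, ranged from 11.83 to 12.78 in control and 11.51 to 12.44 in RCS. Of these 5 markers, 3 were lower in RCS against control, 2 in RCO and 1 in SWOP, and 0 were higher. The shares of all genes lower were 25.7%, 4.26% and 3.5%. The part of adipocytes in the differences reported here was not tested.

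Genes known to respond to KLF15, mainly of branched-chain amino acid and lipid use, together with GATA4 and myocardin (MYOCD), formed a list of 19, of which 14 were measured. Like the members, this list and the gene lists below were chosen with earlier results of these data known. Their counts are therefore a description and not an independent test. In RCS against control 9 of 14 were lower and 0 higher, where 25.7% of all 6765 genes were lower and 28.8% higher. In RCO 7 were lower and 0 higher, against 4.26% and 11.3% of all genes, and in SWOP 1 was higher and 0 lower, against 4.66% and 3.5%. The median difference of the list was -0.81 in RCS, -0.43 in RCO and 0.02 in SWOP, beside -0.004, 0.014 and 0.044 for all genes.

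Named by smallest p, CPT1B, which carries long-chain fatty acids into mitochondria, fell by 1.70 in RCS (SE 0.176, 3.26-fold; limma adjusted p = 1.52e-06) and by 1.12 in RCO (2.18-fold; 0.00124). BCAT2, the mitochondrial transaminase of branched-chain amino acids, fell by 1.15 in RCS (SE 0.159, 2.22-fold; limma adjusted p = 1.91e-05) and by 0.79 in RCO (0.00418). BCKDHA, a subunit of the branched-chain ketoacid dehydrogenase, fell by 0.93 and 0.57 (1.16e-05 and 0.00601). ACADL, a long-chain acyl-CoA dehydrogenase, fell by 0.94 and 0.64 (1.35e-05 and 0.00383). For all 4 genes the RCS and RCO ranges lay wholly below the control range.

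GATA4, a hypertrophic factor that KLF15 is known to oppose, was higher in SWOP by 0.56 (SE 0.138; limma adjusted p = 0.0233) and lower in RCO than in SWOP by 0.78 (0.00358). The call of GATA4 in SWOP was lost with quantile normalization and without control replicate 4 or SWOP replicate 2, 4 or 5. Against SWOP, all 14 were lower in RCS, GATA4 and MYOCD among them, where 17.7% of all genes were lower, and the count was 12 to 14 over the alternatives. In RCO against SWOP 9 were lower (6.4% of all genes), and in RCS against RCO 4 (9.9%).

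The RCO and RCS counts differ in how much they rest on single hearts. In RCS against control 9 to 11 were lower under every alternative. In RCO against control the 7 became 4 without control replicate 4 or 5, without RCO replicate 2 or 3 or both, or when only the 2 groups were fitted. The 9 of RCO against SWOP became 4 without RCO replicates 2 and 3 or without SWOP replicate 5, and 5 without RCO replicate 2 or 3 or SWOP replicate 2 or 3. The 4 of RCS against RCO ran from 0 to 7 as single hearts were left out. The same fall of the cardiomyocyte sum stands beside these counts, and its part in them was not tested.

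**Figure D3:**
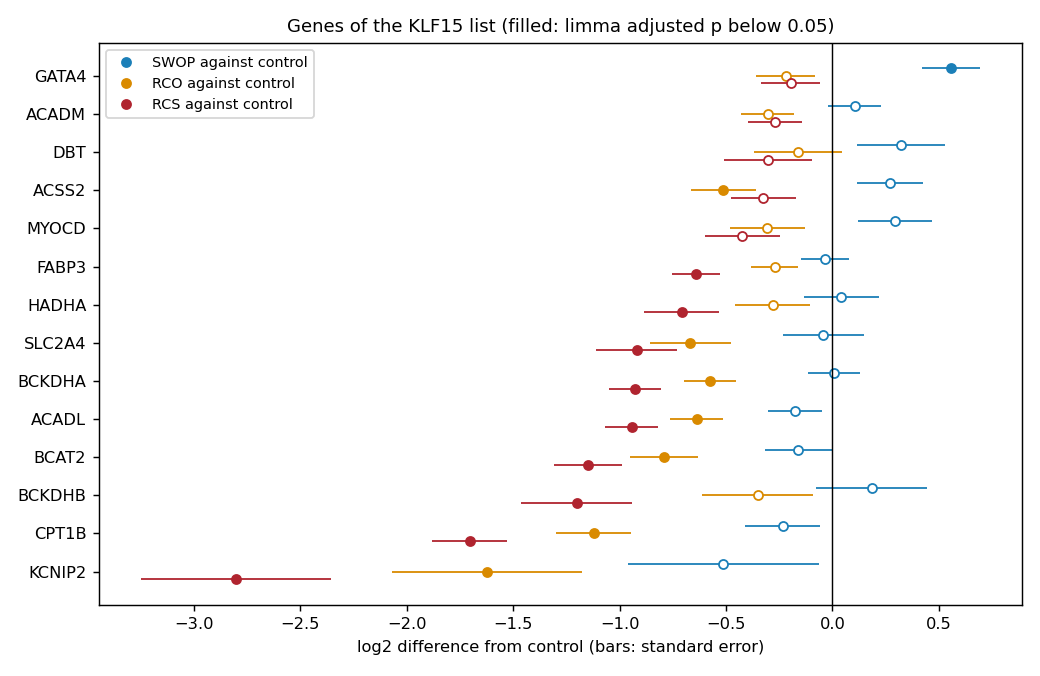
Log2 difference from control (horizontal axis, bars for the standard error) of the 14 measured genes of the KLF15 list in the 3 protocols, filled where the limma adjusted p was below 0.05. In RCS 9 genes are filled and left of 0, in RCO 7, and SWOP has 1 filled point, GATA4, to the right.

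CEBPD encodes C/EBP-delta, a transcription factor of the acute phase that glucocorticoids, interleukin-6 and lipopolysaccharide all induce, in myeloid cells among others. It went the other way from the rest in RCS. At its brightest probe set the RCS hearts measured 9.99, 9.83, 10.28, 10.13 and 9.84. Control hearts measured 8.01, 8.39, 8.88, 10.17 and 8.91, SWOP hearts 8.81, 8.73, 7.95, 8.32 and 8.29, and RCO hearts 8.34, 10.38, 9.75, 8.75 and 8.68. All 5 RCS hearts lay above all SWOP hearts and above 4 of 5 controls, control replicate 4 was as high as RCS, and RCO replicates 2 and 3 stood apart from the other RCO hearts.

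CEBPD 1 was higher in RCS than in control by 1.14 (SE 0.355, 2.21-fold; limma adjusted p = 0.0130) in all 17 alternatives, with the difference at 0.93 to 1.47 as single hearts were left out. It was higher in RCS than in SWOP by 1.59 (SE 0.355, 3.02-fold; limma adjusted p = 0.00219). The differences of 0.31 in RCO and -0.45 in SWOP against control did not pass (0.615 and 0.433). Without RCO replicates 2 and 3 the RCO difference was -0.28.

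The order of means for CEBPD 1 was RCS 10.01 ± 0.193, RCO 9.18 ± 0.852, control 8.87 ± 0.816 and SWOP 8.42 ± 0.352 (SD, n = 5). Neighbours did not pass, with adjusted p of 0.1, 0.615 and 0.433. RCS against RCO passed without RCO replicate 2 (1.13, 0.0140) and without replicates 2 and 3 (1.42, 0.00237).

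CEBPD 2 followed CEBPD 1 heart by heart but did not separate RCS from control. The 5 values of CEBPD 2 ran from 7.82 to 8.34 in RCS and 6.66 to 7.46 in SWOP, which did not overlap, and from 7.07 to 8.89 in control and 7.29 to 8.54 in RCO. RCS was higher than SWOP by 1.06 (SE 0.280, 2.09-fold; limma adjusted p = 0.00712), and higher than control by 0.38 with an adjusted p of 0.273. That difference was 0.66 with an adjusted p of 0.0305 without control replicate 4, the highest heart at this probe set.

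CEBPD 3 is dim, at percentile 15.8 of mean signal, and its values ran from 3.90 to 4.36 in SWOP, 4.34 to 4.67 in control, 4.52 to 4.92 in RCS and 4.65 to 4.92 in RCO. SWOP was lower than RCO by 0.58 and lower than RCS by 0.52 (SE 0.101, limma adjusted p = 0.00325 and 0.000720), without overlap. SWOP was also lower than control by 0.36 (adjusted p = 0.0388), in 6 of 16 alternatives. That call was lost with quantile normalization (0.123), with medians centred (0.0522) and without any one of control replicates 1, 2, 4 and 5 and SWOP replicates 2 to 5 (0.0512 to 0.0978). All 3 probe sets of CEBPD therefore had RCS above SWOP without overlap.

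The mean summed level of macrophage, smooth muscle and fibroblast markers was also higher in RCS than in control. Of 6 macrophage markers, 4 were measured (CD163, CD14, AIF1 and C1QA), none of them near 0, and their summed level (log2) ran from 11.11 to 11.44 in RCS, 10.55 to 12.43 in RCO, 9.91 to 10.69 in SWOP and 9.85 to 10.80 in control. RCO replicates 2 and 3, the high RCO hearts for CEBPD, had the highest sums of their group, at 12.43 and 11.40. Control replicate 4, the high control heart for CEBPD, had a sum of 10.08, inside the range of the other controls. Of the 4 markers 2 were higher in RCS against control, 1 in RCO and 3 in RCS against SWOP, where 28.8%, 11.3% and 20.3% of all genes were higher.

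Of 4 smooth muscle markers, 3 were measured (ACTA2, TAGLN and CNN1), none near 0. All 3 were higher in RCS against control and against SWOP, where 28.8% and 20.3% of all genes were. In SWOP and in RCO against control 1 was higher, beside 4.66% and 11.3% of all genes. Their summed level (log2) ran from 13.09 to 13.83 in RCS, 12.01 to 13.61 in RCO, 11.95 to 12.84 in SWOP and 11.65 to 12.44 in control, without overlap of RCS with control or SWOP. The RCO and control hearts high for CEBPD had the highest smooth muscle sums of their groups, at 13.61 and 13.28 in RCO replicates 2 and 3 and 12.44 in control replicate 4. Of 6 fibroblast markers 4 were measured, and 2 of them were higher in RCS against control, beside 28.8% of all genes. The fibroblast sums overlapped, at 13.27 to 14.12 in RCS against 12.40 to 13.40 in control. The part of macrophages, smooth muscle and fibroblasts in the CEBPD differences was not tested.

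In the fit to all arrays and all tested probe sets, every member probe set that passed against SWOP was higher in the repeated protocol. In RCO against SWOP, 2 of 10 probe sets were higher (CEBPD 3 and KLF9 2) and 0 lower, where 3.75% of all tested probe sets were higher and 6.31% lower. In RCS against SWOP, 4 were higher (FKBP5 2 and the 3 of CEBPD) and 0 lower, against 13.8% and 15.3%. In RCS against RCO, 1 was lower (KLF9 2) and 0 higher, against 10.3% and 8.75%. The count for RCS against SWOP was 4 or 5 in every alternative, but not always in 1 direction. In 5 of 17 alternatives it included KLF15, which was called lower in RCS. That for RCO against SWOP was 1 without SWOP replicate 2 or 4 and 4 without the arrays of highest spike-in signal, and that for RCS against RCO was 3 without RCO replicate 2 and 4 without RCO replicates 2 and 3.

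To see whether the same hearts were high in several members, the deviation of each heart from its group mean was compared between the brightest probe sets of the 5 genes. No pair of genes passed in 10 pairs tested (permutation of arrays within groups, 100000 resamples, two-sided, Benjamini-Hochberg over the pairs). One pair, TSC22D3 and KLF9, passed before adjustment (n = 20, r = 0.68, rho = 0.42, permutation p = 0.0164 for r and 0.0954 for rho, adjusted 0.164 and 0.284). Without control replicates 2 and 3, the hearts farthest from the median, its r was 0.30, so the relation rests on those hearts. The other 9 pairs had r from -0.32 (KLF15 and CEBPD) to 0.38 (TSC22D3 and CEBPD), with adjusted p of 0.369 to 0.580.

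Probe sets of 1 gene were compared in the same way, over 6 pairs. For FKBP5 the deviations went together (n = 20, r = 0.81, rho = 0.81, permutation p = 0.00012 and 0.00028, adjusted 0.00036 and 0.00084), and r was 0.79 without the 2 farthest hearts. CEBPD 1 and 2 did so as well (n = 20, r = 0.96, rho = 0.92, permutation p = 1e-05 and 2e-05, adjusted 6e-05 and 0.00012), the first being the smallest p that these permutations can give, and r was 0.94 without 2 hearts. CEBPD 3 was weaker against CEBPD 1 (r = 0.40, rho = 0.44) and CEBPD 2 (r = 0.43, rho = 0.49), with adjusted permutation p of 0.0673 for both r, and of 0.0562 and 0.0387 for rho, so that CEBPD 2 and 3 passed by rho and not by r. The TSC22D3 pair (r = 0.41, rho = 0.29) and the KLF9 pair (r = -0.36, rho = -0.34) did not pass, with adjusted permutation p of 0.149 and 0.0952 for r and 0.233 and 0.195 for rho.

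**Figure D4:**
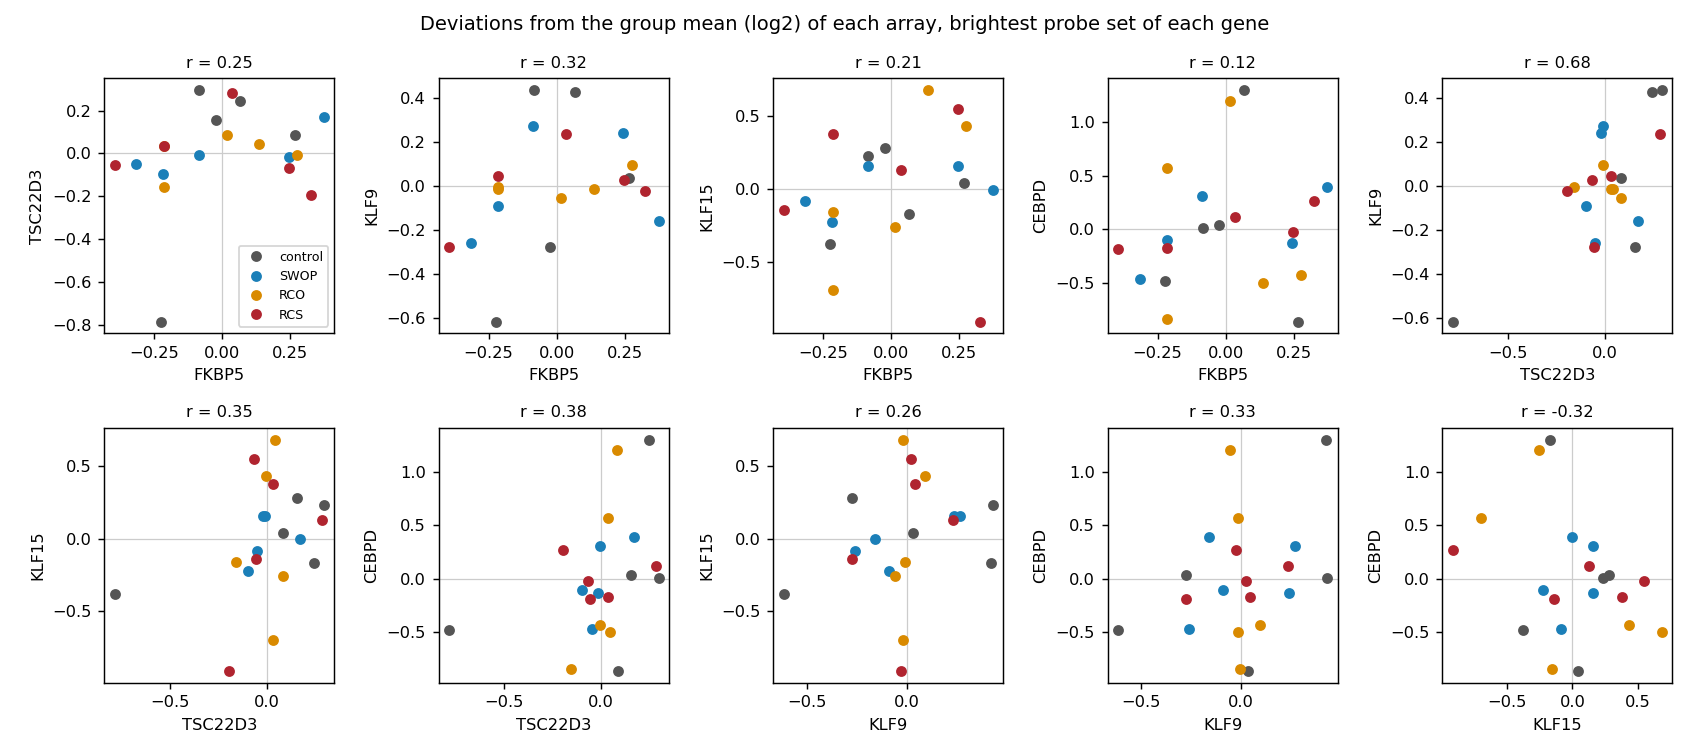
Deviation of each of 20 hearts from its group mean (log2) for the 10 pairs of the 5 genes, brightest probe set of each, 1 panel per pair and 1 colour per group. In the panel of TSC22D3 and KLF9, control replicate 2 sits alone at the lower left, and r is 0.68 with it and 0.30 without it and control replicate 3.

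Genes whose signal was most like each member over the 20 hearts were taken from 5769 genes above the 30th percentile of signal, as a description, since hearts of 1 group share a protocol. KLF15 was closest to CRY2, a repressor of the circadian clock (r = 0.92), IVNS1ABP (0.92) and CKMT2, the mitochondrial creatine kinase of striated muscle (0.89). CRY2 fell by 0.84 in RCS (SE 0.227; limma adjusted p = 0.00549) and CKMT2 fell by 0.70 (SE 0.193; 0.00646), beside 0.97 for KLF15. Within groups, by deviations from the group mean, KLF15 was closest to HEY2 (0.93), IVNS1ABP (0.90) and CKMT2 (0.90), and HEY2 itself did not pass in RCS against control (-0.42, 0.168).

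CEBPD was closest to EF1ALPHA as the probe table names it (0.91), IRF8, a factor of myeloid cells (0.91), and HMOX1, the inducible heme oxygenase (0.91). IRF8 rose by 1.11 in RCS (SE 0.229; limma adjusted p = 0.000688) and HMOX1 by 1.79 (SE 0.383; 0.000952). Within groups CEBPD was closest to TIMP1 (0.87), SRGN (0.87) and HK3 (0.86). For the other members r was lower. FKBP5 was closest to PSMB3 (0.72), CYTH2 (0.68) and PRPF18 (0.67), TSC22D3 to MFAP5 (0.81), C17H8orf4 (0.76) and ATG7 (0.74), and KLF9 to SRSF5 (0.74), C17H8orf4 (0.72) and PBLD (0.72). Within groups FKBP5 was closest to NVL (0.84), SLA-DMA (0.73) and BLMH (0.73), TSC22D3 to ATG7 (0.84), KDM3A (0.81) and MFAP5 (0.81), and KLF9 to LACTB (0.79), PBLD (0.74) and C17H8orf4 (0.71).

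The receptor and its partners were taken as a list of 23 genes, of which 17 were measured. NR3C1, the glucocorticoid receptor, was lower in RCS by 0.25 (SE 0.0926, 1.19-fold; limma adjusted p = 0.0323), from 8.66 ± 0.180 in control to 8.41 ± 0.124 (SD, n = 5). Its difference was -0.11 in SWOP (adjusted p = 0.486) and -0.25 in RCO (0.0887). These values are those of its brightest probe set, and 3 of its 4 probe sets had the same sign in each protocol. Another of the 4 was called lower in SWOP, and in RCS 2 of the 4 were called lower. NR3C2, the mineralocorticoid receptor, was not analysed here.

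Of the 17 genes, 2 were higher and 0 lower in SWOP against control, where 4.66% of all genes were higher and 3.5% lower. In RCO 1 was higher and 2 lower, against 11.3% and 4.26%. In RCS 5 were higher and 5 lower, close to the 28.8% and 25.7% of all genes. The 2 in SWOP were FKBP4, the co-chaperone that carries the receptor toward the nucleus and counterpart of FKBP51, up by 0.47 (SE 0.118; limma adjusted p = 0.0253), and BAG1, a chaperone cofactor, up by 0.53 (SE 0.154; 0.0443). The count was 0 with quantile normalization and without control replicate 4 or SWOP replicate 4 or 5, and 1 without any other heart of these groups. FKBP4 rose in the comparison in which FKBP5 fell.

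In RCO and RCS the members of the receptor list that moved included coactivators, corepressors and transporters. NCOA1, a receptor coactivator, fell by 0.53 in RCS (SE 0.0905; limma adjusted p = 0.000137), and SERPINA6, the cortisol-binding globulin, fell by 0.42 (0.00175). NCOR1, a corepressor, fell by 0.29 in RCO (0.0269), and ABCB1, an efflux pump that removes steroids from cells, fell by 0.42 (0.0302). PTGES3, the p23 co-chaperone, was higher by 0.65 in RCO and 1.04 in RCS, but only 1 of its 2 probe sets had that sign. The 5 lower of RCS became 3 without control replicate 1, 2 or 3 or RCS replicate 2 or 3, and the 1 higher of RCO became 4 without RCO replicate 2 and 3 without RCO replicate 1. The 2 lower of RCO ran from 0, without control replicate 1 or RCO replicate 1, to 3 without control replicate 5.

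Other genes that glucocorticoids induce made up a list of 42, of which 25 were measured. In SWOP 3 were lower and 0 higher, against 3.5% and 4.66% of all genes. PER1, a clock gene with a receptor binding site, fell by 0.82 (SE 0.182, 1.77-fold; limma adjusted p = 0.0149), FOXO3, a factor of atrophy and stress resistance, fell by 0.70 (SE 0.114; 0.00646), and PCK1, an enzyme of gluconeogenesis, fell by 0.28 (SE 0.0833; 0.0468). PER1 and FOXO3 have 2 probe sets each, which had the same sign against control in all 3 protocols, but only 1 of the 2 was called lower. The median difference of the 25 was -0.17 in SWOP, -0.11 in RCO and -0.01 in RCS.

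In RCO 5 of the 25 were lower and 2 higher, against 4.26% and 11.3% of all genes. FOXO3 fell by 0.48 (SE 0.114; limma adjusted p = 0.0119) and TXNIP, which restrains glucose uptake, fell by 0.61 (SE 0.137; 0.00843), while RGS2, a brake on G-protein signalling, rose by 2.25 (SE 0.415; 0.00286; 2 of its 3 probe sets with that sign) and ANXA1, an anti-inflammatory phospholipid-binding protein, by 1.02 (SE 0.245; 0.0125). Without RCO replicates 2 and 3, 1 was lower and 1 higher. The 5 lower became 2 without RCO replicate 2 or 3 and 3 without control replicate 3, 4 or 5, and the 2 higher became 5 without RCO replicate 1 or 5 and 4 without control replicate 4.

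In RCS 7 were lower and 6 higher, near the shares of all genes (25.7% and 28.8%). SESN1, a stress-induced inhibitor of growth signalling, fell by 0.65 (SE 0.1; limma adjusted p = 5.6e-05) and FOXO3 by 0.46 (SE 0.114; 0.00306). ANXA1 rose by 1.80 (SE 0.245, 3.49-fold; 1.64e-05) and ALOX5AP, which serves leukotriene synthesis in leukocytes, by 1.24 (SE 0.252; 0.000656). The macrophage marker CD163 is itself in this list, and the macrophage sums given above stand beside these rises, whose dependence on them was not tested.

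**Figure D5:**
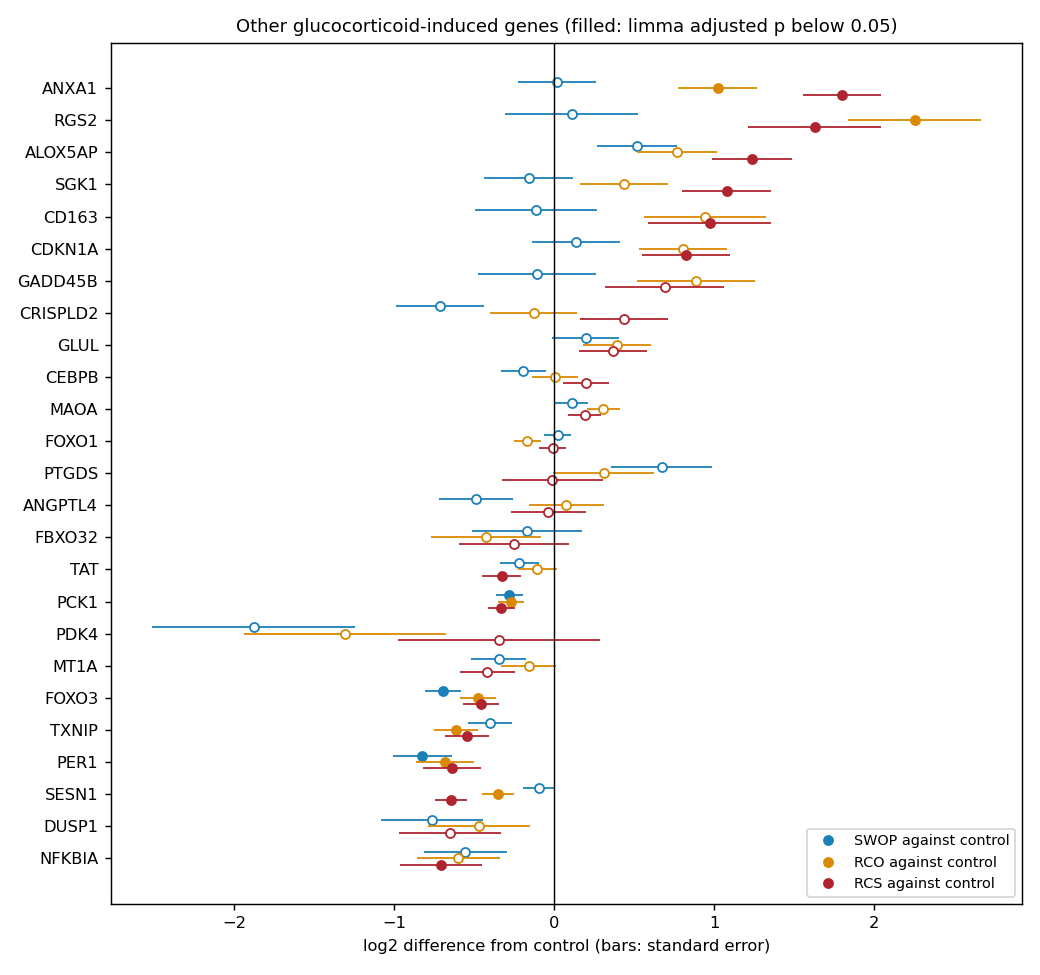
Log2 difference from control (horizontal axis, bars for the standard error) of the 25 measured genes of the list of other glucocorticoid-induced genes, filled where the limma adjusted p was below 0.05. The 3 filled SWOP points (PER1, FOXO3 and PCK1) lie left of 0, and the RCS points are divided into 7 on the left and 6 on the right.

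Against SWOP, 7 of the 25 were higher and 1 lower in RCS, where 20.3% and 17.7% of all genes were. SGK1, the serum and glucocorticoid regulated kinase, was higher by 1.24 (SE 0.276, 2.36-fold; limma adjusted p = 0.00219), CRISPLD2 by 1.15 (SE 0.274; 0.00343) and ANXA1 by 1.79 (SE 0.245; 3.99e-05), and SESN1 was lower by 0.55 (SE 0.1; 0.000412). The 7 became 4 without SWOP replicate 2 or 3 or RCS replicate 3 or 4, and 11 when only these 2 groups were fitted. In RCO against SWOP 2 were higher and 0 lower (5.54% and 6.4% of all genes), both named by the rule: RGS2, by 2.14 (SE 0.415; 0.00555), and ANXA1, by 1.01 (SE 0.245; 0.0162). Of the 3 probe sets of RGS2, 2 had that sign in this comparison and 1 was called higher.

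Cytokine and inflammatory genes that glucocorticoids restrain formed a list of 20, of which 18 were measured. In SWOP 1 was lower and 0 higher, against 3.5% and 4.66% of all genes, and in RCO 1 was higher and 0 lower, against 11.3% and 4.26%. In RCS 6 were lower and 2 higher, against 25.7% and 28.8% of all genes. TNF fell by 0.58 in SWOP (SE 0.135; limma adjusted p = 0.0191) and by 0.82 in RCS (SE 0.135; 9.8e-05), and CCL5, a T cell chemokine, rose by 0.75 in RCO (SE 0.241; 0.0498). In RCS, NOS2, the inducible nitric oxide synthase, fell by 0.49 (SE 0.122; 0.00321), CSF2 fell by 0.49 (SE 0.131; 0.00534) and MMP1 fell by 0.24 (SE 0.0606; 0.00358). Signal levels of these genes are not given here. Leaving out dim probe sets moved the part of all calls against control that were higher from 42.1% to 50.3% in SWOP. In RCS it moved from 40.6% to 47.3%. The part of low signal in the falls of this list was not tested. The list median was -0.32 in SWOP and -0.35 in RCS, and -0.10 and -0.07 without control replicate 4. In RCO 3 were higher without that heart, and 0 without control replicate 1, 2 or 3 or RCO replicate 2, 3, 4 or 5. In SWOP 0 were lower without control replicate 4 or SWOP replicate 2 or 4, and in RCS 1 was higher without control replicate 1, 2 or 3. Against SWOP, 1 gene of this list was higher in RCS and 0 lower (20.3% and 17.7% of all genes), and with the 2 groups alone 4 were higher. It was CCL2, a chemokine for monocytes, by 1.70 (SE 0.456; limma adjusted p = 0.00792).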

How the data were processed

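RNA of 20 pig hearts was hybridized to 1-colour Affymetrix porcine arrays. Values are log2 signals made by the authors and used as deposited. RMA and MAS5 are named per the submitters' processing notes, without version or role, and the log base, taken as 2 from the range of values, is not stated. Of 24123 probe sets 124 control spots were left out. The members and gene lists were chosen with earlier results of these data known.

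The model of 4 group means was fitted in R 4.3.3 with limma 3.58.1 (lmFit, eBayes; 16 residual degrees of freedom), with Benjamini-Hochberg adjustment over 23999 probe sets in each of 6 comparisons. Adjusted p-values quoted with a difference come from limma unless a permutation is named. Gene symbols came from the platform's probe table, in which 9989 of 10297 entries had a RefSeq gene identifier, and a list gene was read from its probe set of highest mean signal (6765 genes). No genome build is named in the sources used here, so no position is given.

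All probe sets of the members are reported. From each list up to 4 called genes of smallest p per comparison were named, plus the receptor, and per member the 3 genes of highest Pearson r by signal and by deviation. Alternatives were quantile normalization, median centring, an intensity trend with robust spread, leaving out dim probe sets (under the 30th percentile), fitting only the compared groups, a replicate block, and leaving out single hearts, RCO replicates 2 and 3, or the 2 arrays of highest spike-in signal. List counts under these were added after the data were seen. The labels describe separate animals. Data were also simulated with 23999 probe sets and independent normal noise, with 67, 67 and 66 probe sets changed by log2 0.5, 1 and 2. The share of these found was 50.7%, 91.0% and 100% for SWOP against control, 56.7%, 92.5% and 100% for RCO and 56.7%, 94.0% and 100% for RCS, with 6.40%, 5.14% and 6.18% false calls. Far fewer probe sets were changed there than were called in the hearts, so these rates need not hold for the hearts. Python 3.11.15, pandas 2.3.3, numpy 2.4.6, scipy 1.17.1 and matplotlib 3.10.9 made the tables, permutations and figures.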

Additional observations from a re-analysis of the deposited data

Results flagged for a closer look

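At TSC22D3 1, control replicate 2 measured 8.79 where the other 4 controls measured 9.66 to 9.87. Its gap to the nearest control was 0.806 of the range of the group, above the limit of 0.71 for 5 samples (Dixon). It was 1 of 40 groups of 5 checked, and chance alone would put about 1 in 20 past the limit. The differences without this heart are given with TSC22D3 above.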

How the results depend on the processing

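The calls of FKBP5 2 (SWOP against control, RCS against SWOP), TSC22D3 2 and KLF15 (RCS against control), CEBPD 1 (RCS against control and SWOP), CEBPD 2 (RCS against SWOP) and CEBPD 3 (RCO and RCS against SWOP) were made under every alternative that could be run for them. CEBPD 3 is removed by the filter on dim probe sets. The number of called member probe sets was 4 in SWOP against control, 2 with quantile normalization or medians centred, and 1 to 4 as single hearts were left out. It was 1 in RCO against control, 2 with quantile normalization, 0 with medians centred, the 2 groups alone or without RCO replicates 2 and 3, and 0 to 2 with single hearts left out. It was 4 in RCS against control, 6 with quantile normalization (2 higher, 4 lower) and 3 to 5 with single hearts left out. It was 2 in RCO against SWOP, 1 without dim probe sets or with the 2 groups alone, 4 without the arrays of highest spike-in signal, and 1 to 3 with single hearts left out. In RCS against RCO it was 1, 0 with the 2 groups alone, 4 without RCO replicates 2 and 3, and 1 to 3 with single hearts left out. Signs turned in 6 differences that were never called. CEBPD 2 in RCO against control ran from -0.12 to 0.34 with single hearts left out and was -0.36 without RCO replicates 2 and 3, where CEBPD 1 was -0.28. TSC22D3 1 in RCO against SWOP was 0.049 with quantile normalization, 0.08 without the arrays of highest spike-in signal and -0.027 to 0.041 with single hearts left out. KLF15 in RCO against SWOP was 0.033 without RCO replicates 2 and 3. KLF9 1 in RCS against SWOP ran from -0.089 to 0.045 with single hearts left out, and CEBPD 3 in RCS against RCO was 0.022 with quantile normalization. The cause was not tested.

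Over all probe sets, 1716 were called in SWOP against control, 957 with quantile normalization, 4091 with the 2 groups alone and 480 to 2023 with single hearts left out (down by over 1.5 times without control replicate 2, 4 or 5 or SWOP replicate 2, 3, 4 or 5). RCO against control had 2571, 564 with the 2 groups alone and 1135 without RCO replicates 2 and 3, and with single hearts left out 1323 (RCO replicate 3) or 1528 (control replicate 2) to 4251 (RCO replicate 5). RCO against SWOP had 2414, 863 with the 2 groups alone, and 1006 (SWOP replicate 5), 1093 (SWOP 2), 1369 (SWOP 3), 1375 (SWOP 4) or 1376 (RCO 3) to 2988 (RCO 1) with single hearts left out. RCS against RCO had 4572, 931 with the 2 groups alone, 9052 without RCO replicates 2 and 3, 2951 without the arrays of highest spike-in signal, and 2053 (RCS replicate 3), 2410 (RCO 5) or 2945 (RCO 1) to 7448 (RCO 2) with single hearts left out. RCS against control and against SWOP stayed within 1.5 times of their counts.

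The labels do not say that a replicate number marks a shared batch, and 10 of 30 same-numbered pairs had a correlation of deviations above 0.1 (range -0.18 to 0.44), short of the every pair that pairing was set to need. The mean correlation was 0.079 against -0.019 for other pairs. Of 20 arrays 11 correlated best with an array of their own number, although each had more arrays of other numbers to match. Replicate 1 also had the highest spike-in signal of its group in all 4 groups, at 10.33 in control, 10.76 in RCO, 10.59 in SWOP and 10.12 in RCS. Whether same-numbered arrays shared a batch was not known here. With the replicate number as a block the member counts were 4, 0, 4, 2, 5 and 1 in the 6 comparisons, in the order SWOP, RCO and RCS against control, RCO and RCS against SWOP, and RCS against RCO. KLF9 1 in RCO against control had an adjusted p of 0.0507 by limma, and KLF15 in RCS against SWOP 0.0277. All-array counts rose with the block in each comparison, to 2119, 3061, 11796, 2860, 7434 and 5275.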

Other observations

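FKBP5 belongs to the family of FK506-binding proteins. Of 13 others, all measured, 3 were higher in SWOP, 6 in RCO and 8 in RCS against control, where 4.66%, 11.3% and 28.8% of all genes were higher. None of them was called lower in these comparisons, while FKBP5 2 fell by 0.68 in SWOP. FKBP1B, which binds the ryanodine receptor of the heart, rose by 0.80 in SWOP (SE 0.130; limma adjusted p = 0.00646), 1.4 in RCO (1.07e-05) and 1.4 in RCS (6.32e-07). The others named by smallest p in RCS were FKBP11, which rose by 2.25 (SE 0.306; 1.69e-05), FKBP14 by 1.98 (SE 0.276; 2e-05) and FKBP7 by 1.54 (SE 0.225; 3.23e-05). The 3 of SWOP became 1 with quantile normalization or without control replicate 4 or SWOP replicate 4 or 5, and 6 with the 2 groups alone. The 6 of RCO became 3 without control replicate 2, RCO replicate 3 or RCO replicates 2 and 3, and 2 with the 2 groups alone.

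Among the other Kruppel-like factors 5 of 12 were measured. KLF11 was lower in all 3 protocols against control, by 1.09 in SWOP (SE 0.268; limma adjusted p = 0.0231), 0.94 in RCO (0.0307) and 1.43 in RCS (0.000322), but its control values were spread widely (SD 0.808). Its call was lost without control replicate 2 or 4 or SWOP replicate 2 or 4 in SWOP, and without control replicate 2, 3 or 4 or RCO replicate 1 or 3 in RCO. KLF10 rose by 1.07 in RCS (SE 0.178; 0.000110) and KLF13 by 0.25 (SE 0.1; 0.0442), where only 1 of these calls remained without control replicate 2, 4 or 5 or RCS replicate 3, 4 or 5. Of 6 other C/EBP genes 4 were measured. CEBPG rose by 1.05 in RCS (SE 0.110; 1.76e-06) and by 0.39 in RCO against SWOP (0.0300). DDIT3, the stress factor CHOP, rose by 1.07 in RCO against control (SE 0.318; 0.0373), which was lost without control replicate 1, 2, 3 or 5 or RCO replicate 1, 3 or 4. At its brighter probe set CEBPA fell by 0.41 in SWOP (SE 0.117; 0.0417) and by 0.30 in RCS (0.0409). Both of its 2 probe sets were called lower in SWOP, but in RCS the dimmer one was called higher, so that CEBPA has no single direction there. Both calls of the brighter probe set were lost with quantile normalization or medians centred and without control replicate 2, 4 or 5. The SWOP call was also lost without any single SWOP heart, and the RCS call without RCS replicate 1, 2 or 3. No other member of the TSC22 domain family was analysed here.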
